A study of Mus musculus with 6 samples.

Results

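The genes described here are the 10 that earlier work on other cells had proposed as targets of AICD, the intracellular domain of the amyloid precursor protein APP. They were taken by name, through the gene symbol of each probe: Mme, Lrp1 and Gsk3b, which act on amyloid-beta or tau, Egfr, Cd82 and Aqp1 at the cell surface, Kat5 in the nucleus, Stub1 in protein quality control, and Tagln and Acta2 in the actin cytoskeleton. All 10 had at least 1 probe among the 17178 genes named on the array, 18 probes in all, and all 10 were among the 13380 genes tested. Because a gene entered the tests with signal well above background on only 2 of the 6 arrays, entry alone says little of its level.

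The samples came from P19, a line of mouse embryonal carcinoma cells that turns into neurons and glia when it is aggregated with retinoic acid. AICD/P19 cells, which express AICD, stood beside pCDNA/P19 cells, which carry the empty vector. Both lines were sampled undifferentiated, after 4 days of aggregation with 5e-07 M all-trans retinoic acid (aggregated), and 2 days after replating (differentiated), with 1 single-colour Agilent array for each line and state and no replicate. The retinoic acid and the aggregation were shared by both lines, and the labels do not say which length of AICD was expressed, how strongly, or how many clones made up a line.

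APP spans the membrane, and gamma-secretase cuts it within the membrane after another protease has removed its outer part, which frees the AICD tail into the cytoplasm. The tail can bind the adaptor Fe65 (Apbb1) and, with it, the acetyltransferase Tip60 (Kat5), and the complex has been studied as a regulator of transcription. In earlier reports AICD was proposed to raise Mme, Cd82, Gsk3b, Kat5, Tagln and Acta2 and to lower Egfr and Lrp1. These directions are given as background, and the values below were measured without regard to them.

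The promoters of Egfr and Acta2 are shown because of their line differences. On its probe with the highest mean, Egfr was the member that exceeded 2-fold, with the AICD line higher, in every state. Acta2 was the one whose line difference changed most with the state, on 2 of its 3 probes. Both were taken from RefSeq on GRCm38.p6 and run 5′ to 3′ from 250 bases before the annotated start of transcription to 20 bases from it, 270 bases each. Capitals mark matches of GGGCGG or its complement and of TCCTCC in Egfr (chr11:16751953-16752222, plus strand). In Acta2 (chr19:34255354-34255623, minus strand) they mark TATAA and matches of the CArG box, the 10-base element of serum response factor.
Egfr: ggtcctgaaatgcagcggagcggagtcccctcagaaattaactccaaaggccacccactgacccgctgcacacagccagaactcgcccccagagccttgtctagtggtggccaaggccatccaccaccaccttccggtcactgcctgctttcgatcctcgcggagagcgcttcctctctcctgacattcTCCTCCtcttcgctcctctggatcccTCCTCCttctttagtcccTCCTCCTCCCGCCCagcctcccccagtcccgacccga
Acta2: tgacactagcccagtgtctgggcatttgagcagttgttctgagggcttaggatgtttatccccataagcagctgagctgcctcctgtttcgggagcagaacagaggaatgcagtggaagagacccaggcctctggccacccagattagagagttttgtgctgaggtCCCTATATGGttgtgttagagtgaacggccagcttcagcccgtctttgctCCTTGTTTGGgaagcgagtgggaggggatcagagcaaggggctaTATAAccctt
The Egfr window held 4 matches of TCCTCC, the nearest pair of which overlap, and 1 of the GC box, and no TATAA or CArG box was found. The Acta2 window held no exact CArG box, but 2 matches with at most 1 other base in the middle, at -84 to -75 and at -34 to -25 from the start, and a TATAA at 11 to 15. Searched on both strands, such relaxed CArG matches were found in 9.2% of 32851 promoter windows of the same length, exact ones in 1.53%, TATAA in 23.7%, GGGCGG in 34.1% and TCCTCC in 31.3%. Of the members, 9 were found in the promoter table, all except Tagln. A match describes letters and is no evidence of binding.

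On the arrays, 61.98% to 65.90% of the spots lay well above background and none was saturated. Signals are given as normalized log2 signal, the log2 of the processed intensity minus that of the array's 75th percentile (529 to 862 in intensity), and a difference of 1 on this scale is 2-fold. Spots that repeat a probe on the same array scattered with a standard deviation between 0.083 and 0.110, which measures the array and not the culture. Both undifferentiated arrays lay on one slide and the other 4 on a second. The line difference and the replating step were therefore measured within slides, whereas the aggregation step and the whole course cannot be told apart from the slide. Pluripotency markers such as Pou5f1 were present in the undifferentiated cells of both lines, with summed levels (signal over the array's 75th percentile) of 152 in the vector and 145 in the AICD line. Neuronal markers reached 173 and 140 in the differentiated state. Glial markers summed to 64.0 in vector and 54.5 in AICD cells in that state, above the undifferentiated sum of each line. One of them, Gfap, was not well above background on any array. Of the 6 glial markers tested, 2 rose and 2 fell over the course at adjusted p under 0.05 (limma). Pluripotency markers in the differentiated state summed to 5.31 in vector cells and 22.2 in AICD cells, and their part in the line differences below was not tested.

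None of the 10 genes passed adjusted p 0.05 for a difference between the lines over the 3 states, in a limma fit with the state as a block and Benjamini-Hochberg adjustment over all 13380 genes. In that fit 0.351% of all genes passed (28 higher and 19 lower in the AICD line). That count was 84 without either undifferentiated array and 0 without any other array, and members passed in none of these fits. Egfr came nearest, at 1.43 ± 0.19 (log2 difference with its standard error from limma, 3 arrays in each line, adjusted p = 0.105), and was the only member with an unadjusted p under 0.05 (0.00167). The median size of the line difference was 0.09 over the members and 0.17 over all genes tested. With 1 array per line and state, this fit takes its error from how far a gene's line difference moves from state to state, so state-dependent genes have wide errors. The labels name no separate cultures, and the p-values do not measure a spread between cultures.

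Within single states there was no replicate and no test, and genes are counted at 2-fold among those well above background on both arrays. In undifferentiated cells 3 of the 9 members measured on both arrays reached 2-fold with the AICD line higher (Egfr, Cd82 and Mme) and 0 with it lower, beside 8.35% of 12554 genes in either direction (4.27% higher and 4.08% lower). In the aggregated state it was 1 of 9 (Egfr), beside 7.33% of 11989 genes (4.21% higher and 3.12% lower), and in the differentiated state 1 of 9 (Egfr), beside 8.53% of 12280 (4.54% higher and 4% lower). Aqp1 was the member left out in the undifferentiated and differentiated states, and Mme in the aggregated state.

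**Figure D1:**
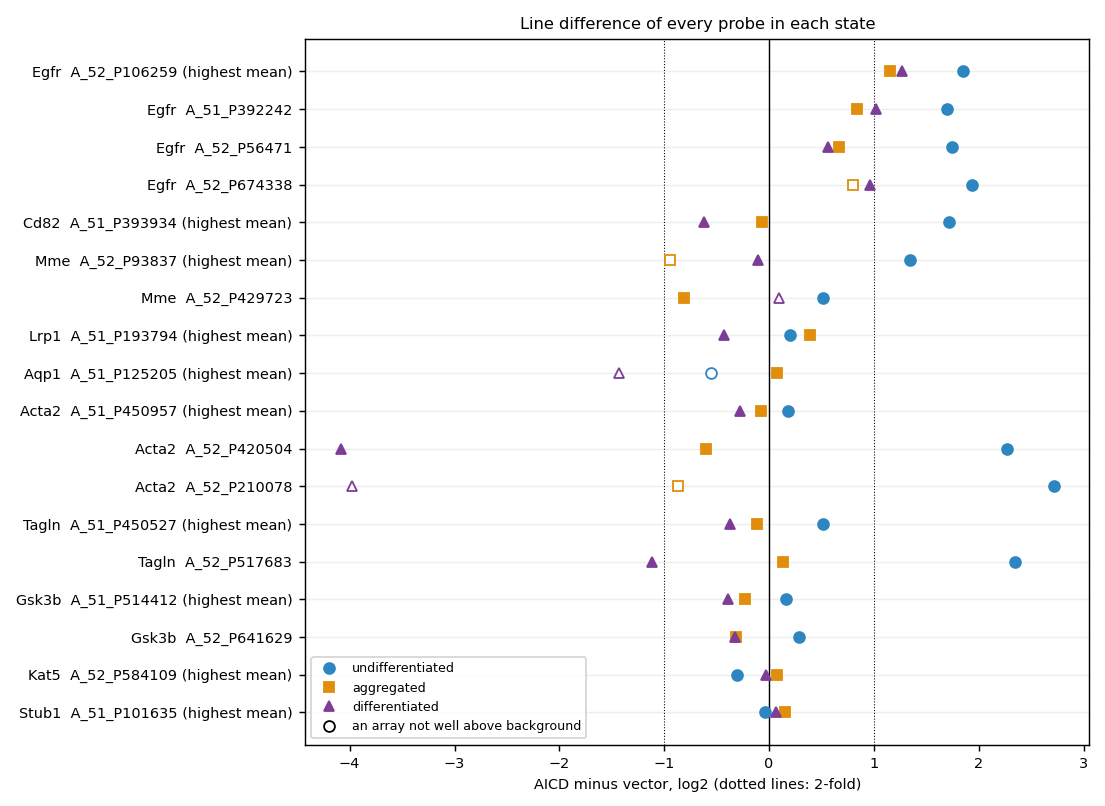
Log2 difference, AICD minus vector, of all 18 probes in the undifferentiated (circles), aggregated (squares) and differentiated (triangles) state, 1 array per point; open symbols mark a difference in which at least 1 array was not well above background, and dotted lines mark 2-fold. The 4 Egfr probes lie to the right of 0 in every state, and the Acta2 probes other than the first run from above 2 to near -4.

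**Figure D2:**
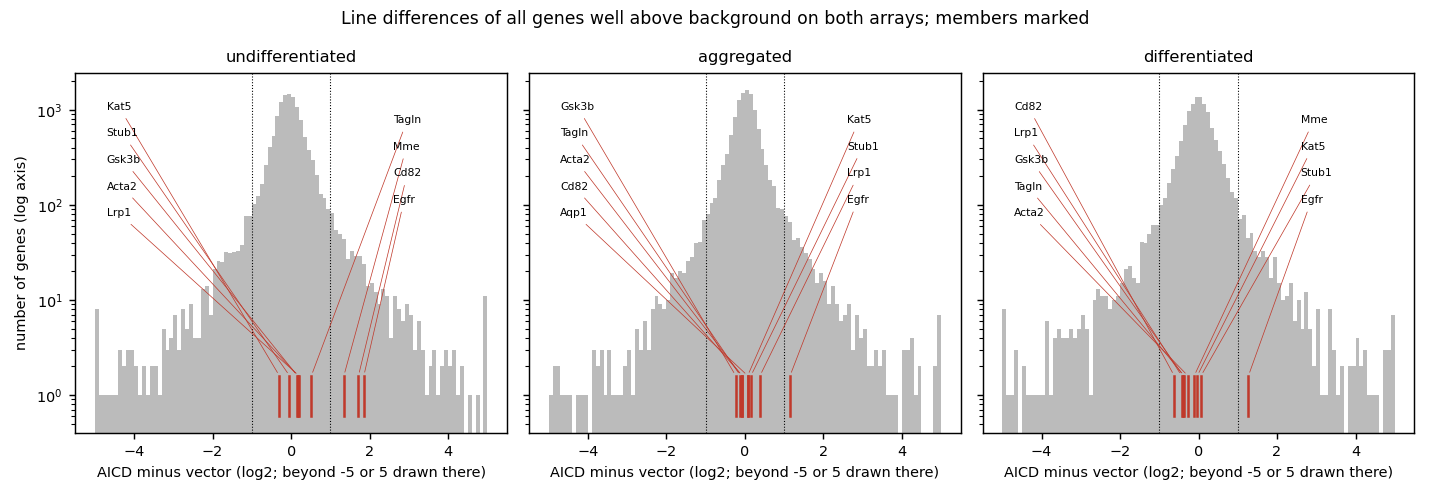
Histograms of the line difference (log2) of all genes well above background on both arrays of a state, with the number of genes on a log axis and each measured member marked in red. Egfr is the only member past 2-fold (dotted lines) in the aggregated and differentiated panels.

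Egfr, the receptor of epidermal growth factor, was higher in the AICD line in all 3 states. On the probe with the highest mean, A_52_P106259, which has 10 spots, its normalized log2 signal was -0.37 in vector and 1.48 in AICD cells when undifferentiated. It was -1.98 and -0.82 after aggregation, and -1.57 and -0.30 after replating. The line differences were thus 1.85, 1.15 and 1.27, or 3.61-, 2.22- and 2.42-fold. The lowest AICD value lay below the vector value of undifferentiated cells, so the lines overlapped across states. Within a state each line had 1 value, so overlap could not be assessed there. Of all genes measured in a state, 2.64%, 5.61% and 5.77% had a larger difference in either direction. A difference of at least 2-fold and of 1 sign in all 3 states was found in 160 of 11480 genes (1.39%), of which Egfr, on this probe, was 1.

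The other Egfr probes gave the same sign, but none of them reached 2-fold in every state. A_51_P392242, also with 10 spots, differed by 1.70, 0.84 and 1.02 in the order of the states, A_52_P56471 by 1.75, 0.67 and 0.56, and A_52_P674338 by 1.94 and 0.96 in the undifferentiated and differentiated states. In the aggregated state A_52_P674338 was not well above background in vector cells and read 1.74-fold higher in AICD cells, a measured value and no bound. The probes are assigned to different RefSeq transcripts of the gene, A_52_P106259 and A_52_P674338 to one and the other pair to another, and in the undifferentiated state the 4 differences spanned only 0.24. With normexp background correction the aggregated difference of the first probe was 0.91, under 2-fold.

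Egfr also fell in both lines on aggregation, by 1.96 ± 0.23 on the log2 scale (limma, n = 2 lines, adjusted p = 0.0143), a change of -1.61 in the vector and of -2.31 in the AICD line. When every probe was tested alone, all 4 Egfr probes fell, in a fit in which 24.4% of 28457 probes did. Over the course the gene fell by 1.49 ± 0.23 (adjusted p = 0.0111). Of 11188 other genes well above background on all arrays whose symbols are not of clone or predicted-gene style, those whose centred profile over the 6 arrays lay nearest to that of Egfr were Cd59a (root mean square difference 0.22 on the log2 scale), Mef2c (0.24) and Slco4a1 (0.24). The standard deviation of the Egfr profile itself was 1.11.

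Around Egfr, 0 of the 19 measured genes of 25 listed ErbB receptors, ligands and feedback genes passed for the line difference in limma (2 at an unadjusted p under 0.05). Their median line difference was -0.06, beside 0.00 over all genes. Among those well above background on all arrays, the largest values were -0.50 ± 0.16 for Erbb2, a partner receptor of Egfr, and 0.30 ± 0.28 for Lrig1, which restrains ErbB receptors. Larger values were those of the ligand gene Nrg1 (-1.02 ± 0.16, limma, adjusted p = 0.142) and of Fos, an immediate early gene (0.57 ± 0.75), each not well above background on 1 array and named after its values were seen. The receptor gene Erbb4, also named after its values were seen and well above background on only 2 arrays, had 0.33 ± 0.12. Egr1, an immediate early gene downstream of growth factor signalling, differed by 1.01 in undifferentiated, -1.21 in aggregated and -0.80 in differentiated cells, with a fitted difference of -0.33 ± 0.49. Over the course 3 of these 19 genes rose and 6 fell, beside 20.3% and 40.4% of all genes.

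Cd82 (KAI1), a tetraspanin known as a suppressor of metastasis, had its largest line difference in undifferentiated cells. Its single probe read -4.84 in vector and -3.13 in AICD cells when undifferentiated, -0.78 and -0.84 when aggregated, and -1.08 and -1.70 when differentiated. The line difference of 1.72 (3.28-fold) in the first state was followed by -0.06 and -0.62, so AICD cells were higher in the first state and lower in the last. With normexp correction the undifferentiated difference was 0.61, under 2-fold, and the undifferentiated intensities were 18.4 and 70.9. Over the 3 states the difference was 0.34 ± 0.51 (limma, adjusted p = 0.849).

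Cd82 rose on aggregation in both lines, by 3.18 ± 0.62 (limma, n = 2 lines, adjusted p = 0.0274), with 4.07 in the vector and 2.29 in the AICD line. Among the 10 members this was 1 of 3 that rose, beside 14.8% of all genes. The profiles nearest to it were those of Letmd1 (0.24), Macroh2a1 (0.27) and Tppp3 (0.27), where the Cd82 profile had a standard deviation of 1.48. Of 22 other tetraspanins measured, 1 passed for the line difference, beside 0.351% of all genes. Tspan6 was higher by 2.74 ± 0.19 (limma, n = 3 arrays per line, adjusted p = 0.0392), in all 3 states (3.07, 2.36 and 2.78). Tspan15 and Tspan9 had the next largest values, 0.71 ± 0.17 and 0.70 ± 0.17, and the median of the family was 0.13.

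Mme encodes neprilysin, a membrane peptidase that degrades amyloid-beta. On probe A_52_P93837 its signal was -1.87 in vector and -0.53 in AICD cells in the undifferentiated state, a difference of 1.34 (2.54-fold), and on probe A_52_P429723 it was -2.01 and -1.49, a difference of 0.52. After aggregation the order turned. The first probe read -4.67 in vector cells and was not well above background in AICD cells, which read 1.92-fold lower on that dim signal. The second probe read -4.44 and -5.25. In the differentiated state the first probe read -5.22 and -5.33 and the second was not well above background in either line. Fitted over the 3 states, the difference was 0.10 ± 0.48 (limma, adjusted p = 0.961), and -0.07 on the second probe.

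The fall of Mme on aggregation was the largest estimate among the members for that step: -3.94 ± 0.59 in the fit (limma, n = 2 lines, adjusted p = 0.0182), on signals that came near background. The vector line changed by -2.80, and the AICD line, dim after aggregation, read 33.9-fold lower than before, a measured value and no bound. With normexp correction the step over both lines was -2.14. On the second probe the differentiated cells were at least 15.7-fold lower than the undifferentiated ones in the vector line and at least 21.3-fold lower for AICD cells. The AICD line thus started higher and ended within 0.11 of the vector line on the first probe.

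Lrp1, a large endocytic receptor that takes up apolipoprotein E and amyloid-beta complexes, had values of 1.50 and 1.70 in undifferentiated vector and AICD cells, 1.57 and 1.95 in aggregated cells, and 3.16 and 2.73 in differentiated cells. AICD cells were the higher in the first and second state and the lower in the last, by 0.20, 0.39 and -0.43, and none of these reached 2-fold. The fitted line difference was 0.05 ± 0.21 (limma, adjusted p = 0.953). Lrp1 was the member with the largest value in the replating step, 1.18 ± 0.26 (limma, n = 2 lines, adjusted p = 0.0819), with 1.59 in the vector and 0.77 in the AICD line. In that step 0 of 13380 genes (0%) and 0 of 10 members passed, while 4395 genes and 2 members (Lrp1 and Stub1) had an unadjusted p under 0.05. With normexp correction 1390 genes passed for that step, Lrp1 among them (adjusted p = 0.0463). Over the course Lrp1 rose by 1.34 ± 0.26 (adjusted p = 0.0160). Lag3 (0.046), Gprasp1 (0.084) and Pde9a (0.092) had the nearest profiles, with the Lrp1 profile at a standard deviation of 0.62.

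Of the other genes that degrade or clear amyloid-beta, 18 of 22 listed were measured and 0 passed for the line difference (7 at an unadjusted p under 0.05, beside 1675 of all 13380 genes), with a median of -0.08. Among those well above background on all arrays, the largest values were 1.12 ± 0.22 for Apoe, the apolipoprotein that Lrp1 binds, 0.96 ± 0.30 for Lrp2, its relative megalin, and -1.32 ± 0.28 for the metalloproteinase Mmp2 (limma, adjusted p between 0.189 and 0.341). Apoe was higher in the AICD line in every state, by 0.59, 1.31 and 1.45, and Mmp2 lower in every state, with differences of -1.99, -0.71 and -1.27. Clu, the chaperone clusterin, named after its values were seen, was not well above background on 1 array and had a larger value, 1.65 ± 0.47 (limma, adjusted p = 0.315). Vldlr, a further member of the LDL receptor family, was lower in every state as well (-0.94, -0.79 and -0.49). Over the course 4 of the 18 rose and 7 fell, beside 20.3% and 40.4% of all genes.

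Gsk3b, a kinase that phosphorylates beta-catenin and tau, differed little between the lines on either probe. Probe A_51_P514412 read -2.29 and -2.13 in undifferentiated vector and AICD cells, -0.97 and -1.21 in aggregated cells, and -0.71 and -1.09 in differentiated cells. The differences were 0.16, -0.23 and -0.39 on that probe and 0.28, -0.32 and -0.33 on A_52_P641629, and the fit gave -0.15 ± 0.16 (limma, adjusted p = 0.768). Gsk3b rose in both lines on aggregation, by 1.12 ± 0.20 (limma, n = 2 lines, adjusted p = 0.0234), and over the course by 1.31 ± 0.20 (adjusted p = 0.0105). Plcg1 (0.045), Isoc2b (0.073) and Hipk2 (0.080) had the nearest profiles (own standard deviation 0.59).

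The list around GSK3 and the beta-catenin destruction complex also holds regulators and substrates outside the complex. Among its 16 other genes, all measured, 0 passed for the line difference (0 unadjusted). On aggregation 7 rose and 0 fell, beside 14.8% and 26.1% of all genes. Those that rose were Axin2, Apc, Frat1, Frat2, Dvl1, Gys1 and Mapt, the gene of tau, which had the largest rise (5.53). Axin2, a scaffold of the complex and a target of Wnt signalling, showed the widest values: 0.68 in undifferentiated, -1.92 in aggregated and -1.36 in differentiated cells, with a fitted line difference of -0.86 ± 0.57. It rose on aggregation by 3.24 (adjusted p = 0.0321 by limma). The beta-catenin gene Ctnnb1 itself differed by 0.17 ± 0.13.

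Kat5, the Tip60 acetyltransferase of the AICD complex, varied least over the arrays. Its values were 2.15 and 1.85 in undifferentiated vector and AICD cells, 2.14 and 2.21 in aggregated cells, and 2.01 and 1.98 in differentiated cells. The line differences were -0.30, 0.07 and -0.03, and the fit gave -0.09 ± 0.14 (limma, adjusted p = 0.865). Its course estimate, 0.00 in size (adjusted p = 0.988), became 0.24 under quantile normalization. Of 16 measured partners in the NuA4 complex 0 passed for the line difference (1 unadjusted). Ruvbl1, an ATPase of that complex, had the largest value, 0.56 ± 0.18, and was higher in each state (0.25, 0.50 and 0.94).

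Stub1 encodes CHIP, a ubiquitin ligase that works with the chaperones Hsp70 and Hsp90. It read 4.92 and 4.88 in undifferentiated vector and AICD cells, 4.85 and 5.01 in aggregated cells, and 4.42 and 4.49 in differentiated cells. Line differences of -0.04, 0.16 and 0.07 gave a fitted value of 0.06 ± 0.12 (limma, adjusted p = 0.900). The fitted replating step was -0.48 ± 0.15 (adjusted p = 0.126) and the course -0.44 ± 0.15 (adjusted p = 0.0638), which became 0.22 under quantile normalization. Of 22 chaperones and co-chaperones of CHIP 0 passed for the line difference (2 unadjusted), with a median of 0.10. Among those well above background on all arrays, the largest values were 0.65 ± 0.23 for Bag2 and 0.63 ± 0.43 for Bag3, which are nucleotide exchange factors of Hsp70, and 0.54 ± 0.54 for Hspa1a, an inducible Hsp70. Its near-identical copy Hspa1b, named after its values were seen and not well above background on 1 array, had 1.09 ± 0.28, and the array may not separate the pair. Over the course 15 of the 22 fell and 1 rose, beside 40.4% and 20.3% of all genes.

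Aqp1, a water channel, lay near the limit of the arrays. It was not well above background in undifferentiated cells of either line, read -5.18 in vector and -5.11 in AICD cells after aggregation, and in differentiated cells read -4.46 in the vector line and was not well above background in the AICD line. On that dim signal differentiated AICD cells read 2.69-fold lower than differentiated vector cells, a measured value and no bound. Aggregated cells were at least 1.64-fold higher than undifferentiated ones in the vector line and at least 1.59-fold higher for AICD cells. The fit called this rise (limma, n = 2 lines, adjusted p = 0.0199), but on dim signals, and with normexp correction the step was 0.12. Of 6 measured aquaporins of 11 listed 0 passed for the line difference (0 unadjusted). Aqp5 had the largest value, -1.60 ± 0.72, from -3.39, 0.10 and -1.50 in the order of the states.

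**Figure D3:**
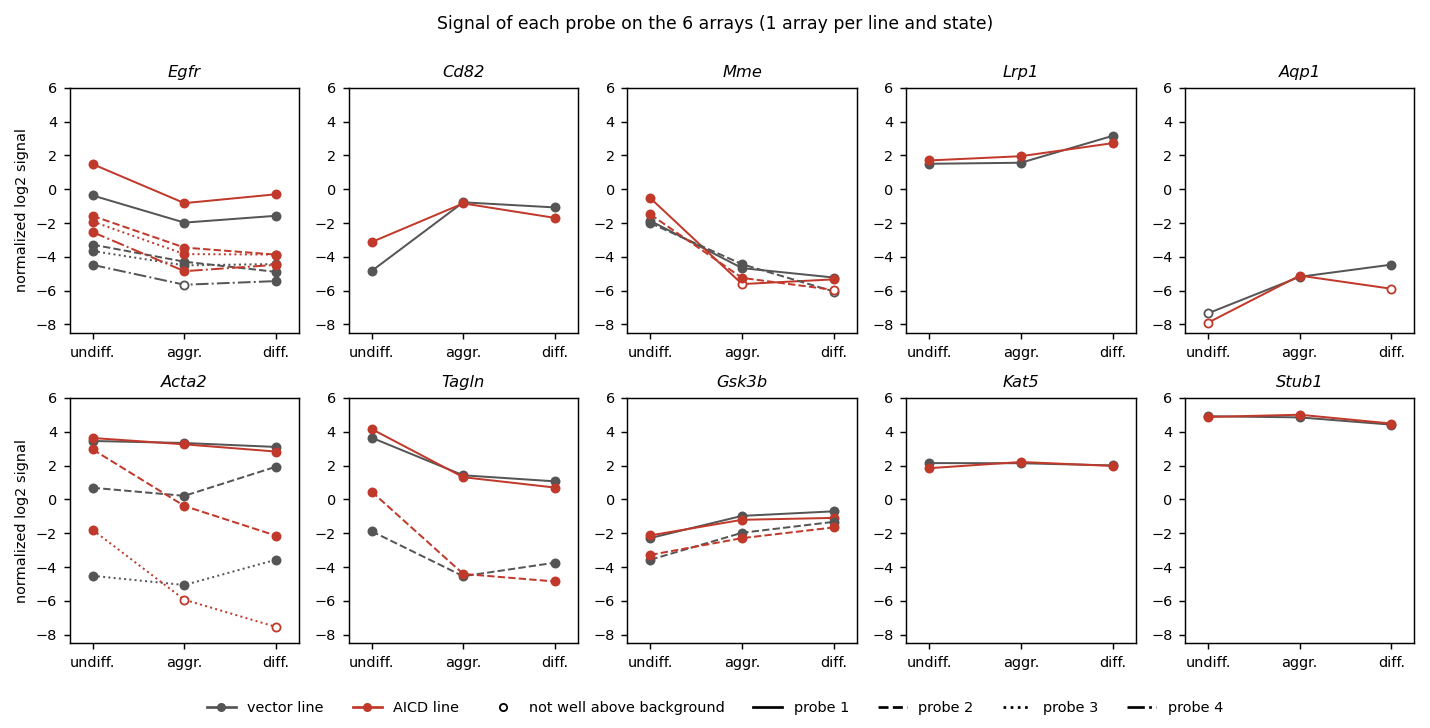
Normalized log2 signal of every probe of the 10 genes in the undifferentiated, aggregated and differentiated state, vector line in grey and AICD line in red, 1 array per point; line styles separate the probes of a gene, and open points are not well above background. The lines run together for Kat5 and Stub1, apart for all Egfr probes, and cross on all 3 Acta2 probes, by less than 2-fold on the first.

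Tagln (transgelin, SM22) and Acta2 (alpha smooth muscle actin) belong to the contractile cytoskeleton and are classic targets of serum response factor. For both, the result depended on the probe. On the probe with the highest mean, A_51_P450527, Tagln read 3.65 and 4.17 in undifferentiated vector and AICD cells, 1.43 and 1.31 in aggregated cells, and 1.07 and 0.70 in differentiated cells. The differences of 0.51, -0.11 and -0.37 gave a fitted value of 0.01 ± 0.22 (limma, adjusted p = 0.991). Probe A_52_P517683 read -1.88 and 0.46 in the first state, -4.54 and -4.41 in the second, and -3.74 and -4.86 in the last, with differences of 2.35 (5.08-fold), 0.14 and -1.11. Both probes were higher in AICD cells before aggregation and lower after replating, by different amounts.

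Acta2 showed the widest disagreement. Its probe with the highest mean, A_51_P450957, read 3.46 and 3.63 in undifferentiated vector and AICD cells, 3.34 and 3.26 in aggregated cells, and 3.10 and 2.83 in differentiated cells, so that the lines differed by 0.18, -0.08 and -0.27 (fit -0.06 ± 0.15, limma, adjusted p = 0.920). Probe A_52_P420504 read 0.69 and 2.95 in the first state, 0.21 and -0.39 in the second, and 1.94 and -2.15 in the last. Its line differences were 2.27 (4.81-fold higher), -0.60 and -4.08 (17.0-fold lower). Between 7 and 10 spots of this probe were kept on each array, with a standard deviation of 0.032 to 0.051, so the spread of spots is small beside these differences. In the differentiated state 0.318% of 12280 genes had a larger line difference than this probe.

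The third Acta2 probe, A_52_P210078, ran the same way as the second. It was higher by 2.72 (6.57-fold) in undifferentiated AICD cells, and not well above background in the AICD line afterwards, at least 1.56-fold lower than the vector line when aggregated and at least 5.07-fold lower when differentiated. Over the course the second probe changed by 1.25 in vector cells and by -5.10 in AICD cells, a difference of -6.35 between the lines, against -0.45 on the first probe. A course difference of at least 2-fold in either direction was found in 11.9% of 11771 genes. Tested alone, the second probe had a line difference of -0.81 ± 1.27 (limma, adjusted p = 0.852), and its sign changed with the state. All 3 probes are assigned to the same RefSeq transcript. Which of them measures Acta2 mRNA, and why they differ, was not tested.

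Among genes with more than 1 probe well above background on both arrays, the median range of line differences between the probes of a gene was 0.18 in undifferentiated (4358 genes), 0.18 in aggregated (4294) and 0.14 in differentiated cells (4431). The range for Acta2 was 2.54, 0.52 and 3.81, and a larger one was found in 0.138% of the genes in the undifferentiated, in 10.2% in the aggregated and in 0% in the differentiated state. Tagln had a range of 1.83, exceeded by 0.436% of the genes, in undifferentiated cells and of 0.74, exceeded by 3.16%, in differentiated cells. Egfr, with 4 probes, had a range of 0.24, exceeded by 37.8%, and of 0.71, exceeded by 3.32%, in the same states. Mme had a range of 0.83, exceeded by 3.40%, in undifferentiated cells. The ranges of Gsk3b were 0.13 and 0.06, exceeded by 62.4% and 76.2%.

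Tagln fell on aggregation on both probes. The fit for the gene gave -2.54 ± 0.27 (limma, n = 2 lines, adjusted p = 0.0134), the second probe tested alone -3.77 ± 0.86 (adjusted p = 0.0320), and over the course the gene fell by 3.03 ± 0.27 (adjusted p = 0.00703). Acta2 changed by -0.25 ± 0.18 on aggregation (adjusted p = 0.314) and by -0.58 ± 0.18 over the course (adjusted p = 0.0529), on the first probe. Tpm1, a tropomyosin and itself proposed as an AICD target, had the profile nearest to Tagln (0.20, where the Tagln profile has a standard deviation of 1.34), followed by Padi1 (0.26) and Cyren (0.27). The profile of the second Acta2 probe, compared outside the rule after its values were seen, lay nearest to Col8a1 (0.65), Acta1 (0.78) and Cavin2 (0.86), against its own standard deviation of 1.63. These distances are large beside those of Lrp1 or Gsk3b.

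Of 23 other smooth muscle and serum response factor target genes, 21 were measured, and 0 passed for the line difference (3 unadjusted; median 0.07). Over the course 16 fell and 1 rose, beside 40.4% and 20.3% of all genes, with a median of -1.34 beside -0.42. Cald1, an actin-binding regulator of contraction, was higher in AICD cells in each state (0.89, 0.78 and 0.40), and Cnn1, the smooth muscle calponin, lower in each (-0.55, -0.89 and -0.13). Vcl, the adhesion protein vinculin, had the largest value among those measured on all arrays, 0.71 ± 0.30. The other muscle actin Acta1, named after its values were seen, differed by 1.78, 0.06 and -1.58, and Actg2 by 0.39, 0.09 and -0.28. Tagln3, a neuronal relative of Tagln also named after its values were seen, was not well above background in undifferentiated vector cells and at least 70.5-fold higher in AICD cells, and was higher by 4.47 and 6.30 in the later states (fit adjusted p = 0.0521 by limma).

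The summed signal of mesenchyme and fibroblast markers, like the Acta2 probes A_52_P420504 and A_52_P210078, was lower in the AICD line after aggregation and lowest relative to the vector line at the end. The summed level of the 10 listed markers was 3.40 in vector and 2.01 in AICD cells when undifferentiated, 7.29 and 1.33 when aggregated, and 32.9 and 0.729 when differentiated. All 10 were well above background in aggregated and differentiated vector cells, against 7 and 6 of 10 in the AICD line, where Col1a1, Pdgfrb, Thy1 and Lum were not well above background at the end. The second Acta2 probe was higher in undifferentiated AICD cells. Of the 8 markers measured on both arrays in that state, 1 exceeded 2-fold in the same direction, the collagen gene Col3a1 (2.03), beside 4.27% of all genes. Another 3 exceeded 2-fold in the opposite direction, Thy1 (-2.94), Snai2 (-2.76) and Col1a1 (-1.25), beside 4.08% of all genes. Pdgfra, not well above background in undifferentiated vector cells, was at least 2.00-fold higher in AICD cells. When aggregated, 5 of the 7 markers measured on both arrays were below the vector line by more than 2-fold, beside 3.12% of all genes. Pdgfra (0.30) and Dcn (0.29) were slightly higher in aggregated AICD cells. Summed smooth and cardiac muscle markers were 10.0 and 8.60, 4.15 and 3.02, and 4.05 and 2.49 in vector and AICD cells, with Des, the muscle filament desmin, not well above background in either line after aggregation. In RNA from whole cultures, fewer cells of a type and less RNA per cell cannot be told apart, and the part of mesenchymal cells in the Acta2 and Tagln values was not tested.

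**Figure D4:**
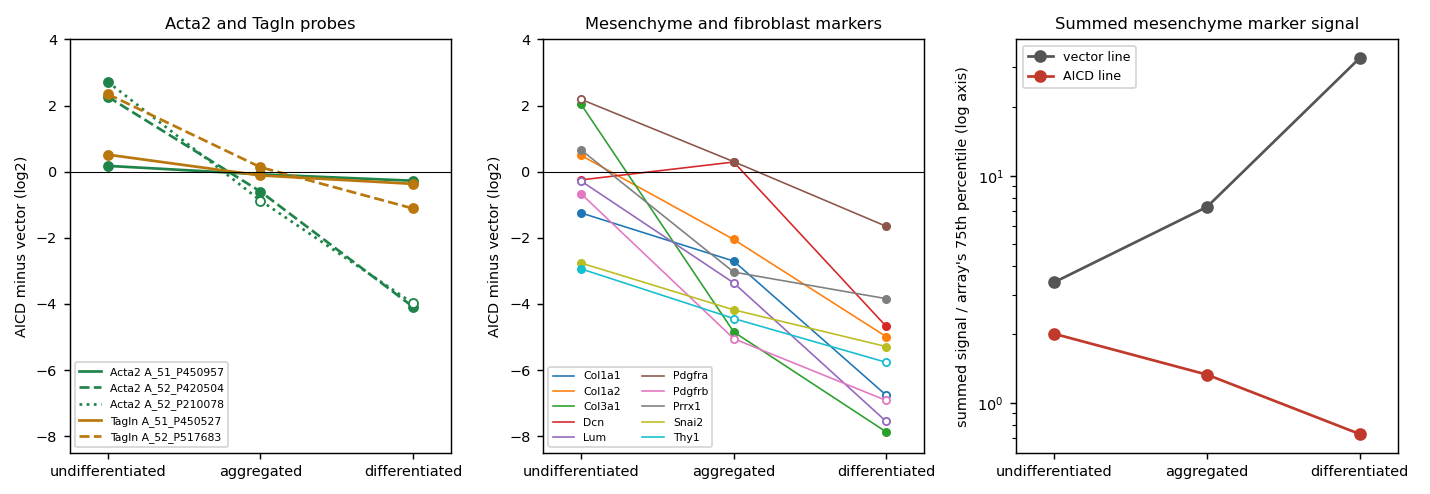
Left and centre, line difference (AICD minus vector, log2) of each Acta2 and Tagln probe and of the 10 mesenchyme and fibroblast markers in the 3 states, 1 array per line and state, with open points where an array was not well above background. Right, summed marker signal over the array's 75th percentile on a log axis, which ends at 32.9 in the vector and 0.729 in the AICD line.

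The members passed more often between states than between lines, as did all genes tested, of which 0.351% passed for the line. The aggregation step and the whole course cannot be told apart from the slide. On aggregation 3 rose (Aqp1, Cd82 and Gsk3b) and 3 fell (Egfr, Mme and Tagln), in a fit in which 40.9% of all genes changed, 14.8% up and 26.1% down. Over the whole course 4 rose (the same 3 and Lrp1) and the same 3 fell, beside 60.7% of all genes, 20.3% up and 40.4% down. Acta2, Kat5 and Stub1 did not pass, at adjusted p of 0.0529, 0.988 and 0.0638. Leaving out either aggregated array left 0 genes and 0 members called for aggregation, and leaving out the vector differentiated array left 874 genes and 1 member (Tagln) called for the course. The lines served as the replicates of these steps, n = 2, and every member that passed changed in the same direction in both. Passing favours such agreement, since the error of the fit grows with how far the changes of the lines differ.

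**Figure D5:**
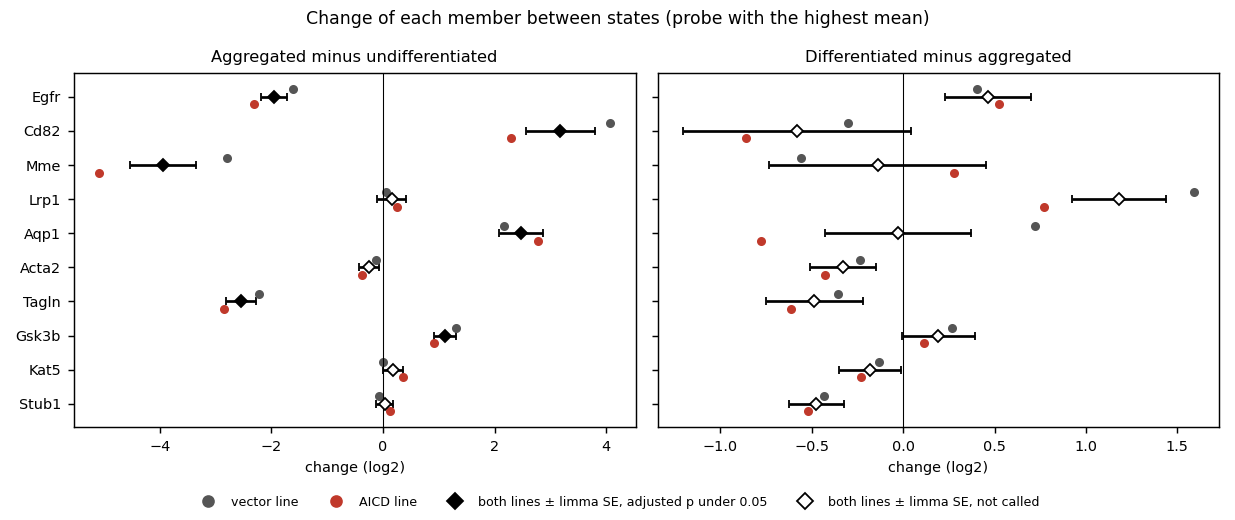
Change (log2) of each member on aggregation and on replating, with the vector line in grey, the AICD line in red, and the estimate over both lines as a diamond with its limma standard error, filled where adjusted p was under 0.05. Filled diamonds are seen only in the aggregation panel, for 6 of the 10 genes, and the x axes differ in scale.

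App itself, the source of AICD, did not pass for the line difference. Its 10-spot probe read -0.46 in vector and -0.21 in AICD cells when undifferentiated, 1.46 and 0.96 when aggregated, and 2.88 and 2.05 when differentiated. The line difference of -0.36 ± 0.25 (limma, adjusted p = 0.643) went from 0.25 to -0.49 and -0.83, and whether the probe lies in the part of App carried by the transgene was not analysed here. App rose in both lines over the course, by 2.80 ± 0.31 (adjusted p = 0.00773). Of the 13 listed further targets and partners of AICD, App included, 0 passed for the line difference (0 unadjusted), with a median of -0.11. Among those well above background on all arrays, Apbb2, a relative of Fe65, had the largest value, -0.57 ± 0.24, with -0.77, 0.01 and -0.94 in the order of the states, and Igfbp3, which binds insulin-like growth factors, differed by 0.66, -0.85 and -0.89. Trp53, the gene of p53, differed by 0.02 ± 0.12. Slc17a6, a vesicular glutamate transporter named after its values were seen, was at least 31.0-fold higher in aggregated AICD cells but differed by -1.65 and -0.38 in the undifferentiated and differentiated states (fit 1.43 ± 1.75).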

How the data were processed

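RNA of 6 samples was hybridised to 6 single-colour (Cy3) Agilent arrays. Per the file headers, the authors read them with Feature Extraction 10.1.1.1, and the deposited processed signal used here is an intensity, the spot brightness after background subtraction. The deposited spot and local background intensities (medians, since the mean spot signal was not used here) served for normexp correction with offset 50.

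Outlier spots were dropped and spots of a probe averaged. Intensities were scaled to each array's 75th percentile and log2 taken. Of 41174 probes, 24844 had a symbol through their RefSeq accession, and 28457 well above background on at least 2 arrays were kept. The probe with the highest mean stood for a gene. Limma 3.58.1 in R 4.3.3 (data.table, version 1.17.8) fitted state and line over the 6 arrays, two-sided, with 2 residual degrees of freedom, a prior worth 2.04 and Benjamini-Hochberg adjustment over 13380 genes; the scripts were tested on simulated data. Where one of the arrays was not well above background, a fold is a bound, taken against the lowest normalized signal well above background there. Where the dim signal itself was higher than that, the fold is the measured one and no bound. The number of arrays limits the precision.

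The members and gene lists were chosen with earlier results of these data known. All members and their probes are named, and of each list the largest line differences, at most 3 in each direction, among genes well above background on all arrays, plus those past adjusted p 0.05. The 3 nearest profiles are given for members well above background on all arrays that span at least 1 on the log2 scale. Genes named outside this rule are marked or serve as markers. Alternatives were other background corrections, scalings, filters, probes and fits without each array. The protein sequence of App is not analysed here.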

Additional observations from a re-analysis of the deposited data

Results flagged for a closer look

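Differences between the lines that took opposite signs in different states are given here; with 1 array per line and state none of these contrasts was tested, and each was called only where both differences exceeded 0.41 on the log2 scale, 3 times the spread of a difference between spots. The difference of Acta2 probe A_52_P420504 went from 2.27 in undifferentiated to -4.08 in differentiated cells, a span of 6.35. For Tagln probe A_52_P517683 it went from 2.35 to -1.11, a span of 3.46. The difference of Cd82 went from 1.72 in undifferentiated to -0.62 in differentiated cells, a span of 2.34. For Mme probe A_52_P429723 it went from 0.52 in undifferentiated to -0.81 in aggregated cells, a span of 1.33. The other Tagln probe, the Acta2 probe with the highest mean, both Gsk3b probes, Lrp1, Kat5 and Stub1 changed sign as well. Each stayed under that size on at least 1 side of the change. Mme probe A_52_P93837 went from 1.34 in undifferentiated cells to a measured 1.92-fold lower in aggregated AICD cells. Acta2 probe A_52_P210078 went from 2.72 to at least 5.07-fold lower in differentiated AICD cells. These 2 are not listed above, and each rests on an array not well above background.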

How the results depend on the processing

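The state term of the fit already set the lines against each other within each state. No further pairing was possible, because each line and state had 1 array and the labels give no replicate numbers to use as a block. No member passed for the line difference under any alternative; that of Egfr kept its sign, from 0.99 to 1.56 (limma, adjusted p from 0.0815 to 0.341). Without each array in turn, the number of genes called ranged from 0 to 84 for the line, from 0 to 3990 for aggregation and from 874 to 6550 for the course. Of the members called for aggregation, all 6 were lost without either aggregated array, Aqp1 and Gsk3b without the vector undifferentiated array, and Aqp1 without the AICD undifferentiated array; for the course, Aqp1 and Lrp1 were lost without the vector undifferentiated, Egfr and Mme without the AICD differentiated, and Cd82 without either aggregated array. Among line differences that changed sign, the ranges without each array were -0.18 to 0.0486 for Acta2, -0.34 to 0.83 for Cd82, -0.17 to 0.0213 for Kat5, -0.12 to 0.29 for Lrp1, -0.53 to 0.62 for Mme and -0.24 to 0.20 for Tagln. For aggregation they were -0.10 to 0.41 for Lrp1 and -0.0448 to 0.11 for Stub1, for replating -0.62 to 0.56 for Aqp1, -1.30 to 0.14 for Cd82 and -0.92 to 0.64 for Mme, and for the course -0.16 to 0.16 for Kat5. Within the second slide 84 genes were called for the line, and the values were -0.34 for Cd82, 0.0213 for Kat5, -0.0220 for Lrp1, -0.53 for Mme and -0.24 for Tagln. Normexp correction gave 583, 496 and 664 genes at 2-fold in the undifferentiated, aggregated and differentiated state, 919 for the difference in course and 1390 called for replating, a line difference of -0.11 for Tagln and a course of -0.0129 for Aqp1, and called Lrp1 for replating (adjusted p = 0.0463). Quantile normalization gave 0.0315 for Acta2 on aggregation and a course of 0.24 for Kat5 and 0.22 for Stub1. With no filter on dim probes 0 genes were called for the line, and with a filter on all 6 arrays 693 for replating; every probe tested alone gave 664 of 28457. Other probes, added after the data were seen, gave a line difference of -0.0661 for Mme (A_52_P429723) and a replating step of -0.51 for Egfr (A_51_P392242) and 0.18 for Tagln (A_52_P517683); the median of probes gave -0.24 for Egfr. Acta2 passed for the course with normexp, median scaling or the filter on all 6 arrays (adjusted p from 0.0245 to 0.0395), and Stub1 with median scaling (adjusted p = 0.0329). The median course of all genes was -0.42, against -0.24 with quantile and -0.58 with median scaling. The cause of these changes was not tested. Leaving out an array could not be run within single states, which have 1 array per line. Signals near background limit Aqp1, Mme and the third Acta2 probe.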
